A study of Homo sapiens with 12 samples.

Results

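The Notch receptors NOTCH1, NOTCH2 and NOTCH3, their ligands JAG1, JAG2 and DLL3, the Notch target genes HES1 and HEY1, and the neuronal repressor gene REST were followed in NCI-H446 cells treated with caffeic acid phenethyl ester (CAPE). These 9 genes were taken by symbol from the 34886 gene symbols of the mRNA count table. All samples came from NCI-H446, an established line of human small cell lung cancer. CAPE is a phenolic ester found in propolis that is known to inhibit NF-kB. The CAPE group was exposed to 40 µM CAPE for 8 h, and the DMSO group received an equal volume of the solvent dimethyl sulfoxide over the same time. Each group has 3 mRNA libraries and 3 microRNA (miRNA) libraries, and no gene of either group was altered by design. The labels do not say whether the libraries of a group are separate cultures. The p-values therefore rest on the spread between libraries, which may be technical.

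Notch receptors are cut after a ligand on a neighbouring cell binds them, and the released intracellular part joins the DNA-binding protein RBPJ to switch on genes such as HES1 and HEY1. HES1 and HEY1 are repressors, and in small cell lung cancer Notch activity is known to hold down the neuroendocrine programme. DLL3 is the ligand that acts inside the cell against Notch and is known as a surface marker of neuroendocrine small cell lung cancer. REST silences neuronal genes in cells that are not neurons and is known to be raised by Notch in non-neuroendocrine small cell lung cancer cells.

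In the RefSeq annotation of GRCh38.p14 the 9 protein-coding genes lie on 8 chromosomes. NOTCH2 spans chr1:119911553-120069662, HES1 chr3:194136148-194138732, REST chr4:56907900-56935844 and HEY1 chr8:79764010-79767767. NOTCH1 spans chr9:136494433-136546048, JAG2 chr14:105140995-105168776 and JAG1 chr20:10637684-10673999. NOTCH3, at chr19:15159038-15200995, and DLL3, at chr19:39498947-39508469, share a chromosome.

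The mRNA libraries held 17569997 to 20917508 estimated counts, so that 3 counts, the floor used here, correspond to 0.153 to 0.205 CPM (counts scaled to a common library size). The library DMSO 3 stood apart, with 16207 genes detected against 17864 to 18587 in the other 5 libraries and a TMM scaling factor of 0.699 against 1.07 to 1.09. Its deviation from the other DMSO libraries followed transcript length, from a median of 0.97 on the log2 scale in the decile of shortest transcripts to -1.02 in the longest decile. NOTCH2 and REST, both in the longest decile, deviated by -1.21 and -1.40 in DMSO 3, while NOTCH3, in the same decile, deviated by 0.04. JAG1 deviated by -2.56 and DLL3 by 2.26, both from few reads. The results of the 8 tested genes are therefore given with all 6 libraries and without DMSO 3, and for other genes called only without DMSO 3 both log2 fold changes are given.

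**Figure D1:**
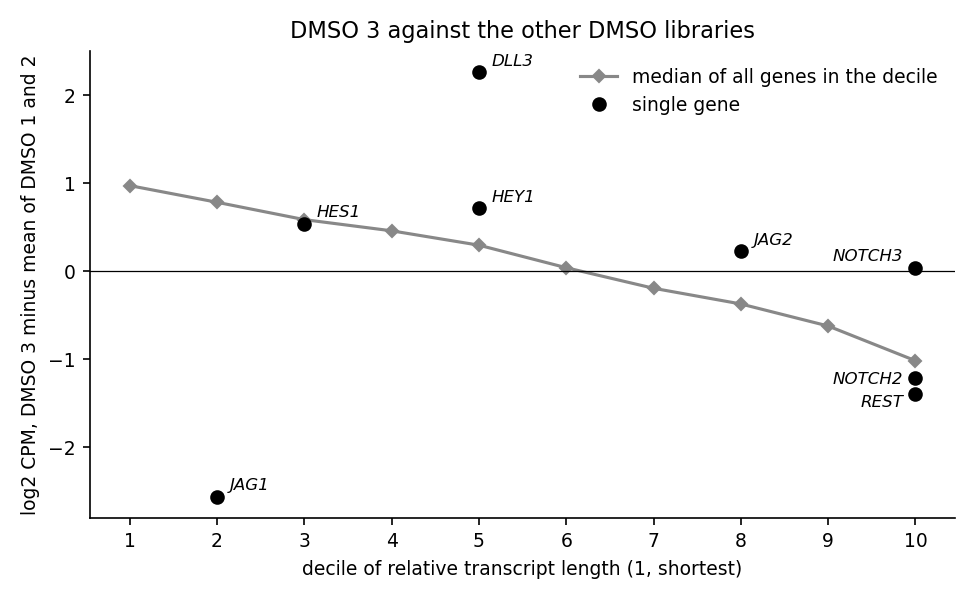
Deviation of DMSO 3 from the mean of DMSO 1 and DMSO 2 (vertical axis, log2 CPM with 0.1 added to each CPM) against the decile of reads per TPM, a measure of transcript length (horizontal axis, shortest on the left). The grey line joins the medians of all tested genes in each decile, which run between 0.97 and -1.02. The labelled black points are the tested Notch genes and REST, and NOTCH2 and REST lie at the long, low end. The decile of JAG1 is uncertain, because its reads per TPM varied 5.44-fold among libraries.

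The neuroendocrine label of small cell lung cancer was checked against 21 marker genes. The transcription factor genes NEUROD1 and INSM1 had at most 2 reads in any library, while others of the list were read at low levels. NKX2-1 had 20, 29 and 23 counts in CAPE libraries, against 6, 17 and 2 in DMSO libraries (1.44 with all 6 libraries, edgeR adjusted p = 0.311), and POU3F2 had 9, 10 and 13, against 9, 11 and 5. GRP, CALCA, BEX1, FOXA2 and ELAVL4 had no read in any library. ENO2 and UCHL1 were the 2 markers that averaged above 1 TPM (a level corrected for transcript length and library size) over all 6 libraries. In contrast, 14 of 15 markers of the non-neuroendocrine state, such as VIM, CD44 and YAP1, averaged above 1 TPM. Fibroblast markers summed to 60.0 to 70.2 TPM in CAPE libraries and 17.1 to 65.5 TPM in DMSO libraries, and immune cell markers to 35.9 to 40.3 TPM and 28.3 to 31.0 TPM for CAPE and DMSO. None of the 6 fibroblast and 3 immune markers tested passed with all 6 libraries, and without DMSO 3 COL1A1 rose (0.27, against 0.36 with all 6 libraries) and DCN fell (-0.33, against -0.19). That is 16.7% of the fibroblast markers tested each way, beside 20.4% higher and 20.8% lower of all genes in that fit. The part of fibroblasts and immune cells in the results was not tested. In bulk RNA of this kind, fewer cells expressing a gene and less RNA of it per cell cannot be told apart.

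NOTCH2 had the highest mean TPM of the 9 genes in both groups, and the order of the means was the same in CAPE and DMSO cells. NOTCH2 averaged 54.8 ± 2.75 TPM in CAPE libraries and 49.0 ± 30.5 TPM in DMSO libraries (SD, n = 3 each). It was followed by JAG2 at 31.8 TPM in CAPE and 24.6 TPM in DMSO libraries, and by REST at 12.7 and 8.83 TPM. The remaining genes were below 7 TPM in every library. In CAPE libraries HEY1 (5.34 to 6.91 TPM) and JAG1 (5.03 to 6.23 TPM) overlapped in level, as did DLL3 (0.163 to 0.762 TPM) and NOTCH1 (0 to 0.357 TPM), and every other neighbouring pair was separated. In DMSO libraries HEY1 (1.13 to 1.71 TPM), JAG1 (0.173 to 2.01 TPM), NOTCH3 (0.622 to 1.64 TPM) and HES1 (0.734 to 1.17 TPM) could not be ordered beyond their spread. NOTCH2 (13.9 to 68.9 TPM) and JAG2 (16.2 to 29.5 TPM) also overlapped in DMSO libraries, with JAG2 above NOTCH2 in DMSO 3, and DLL3 (0.212 to 0.741 TPM) just overlapped HES1.

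**Figure D2:**
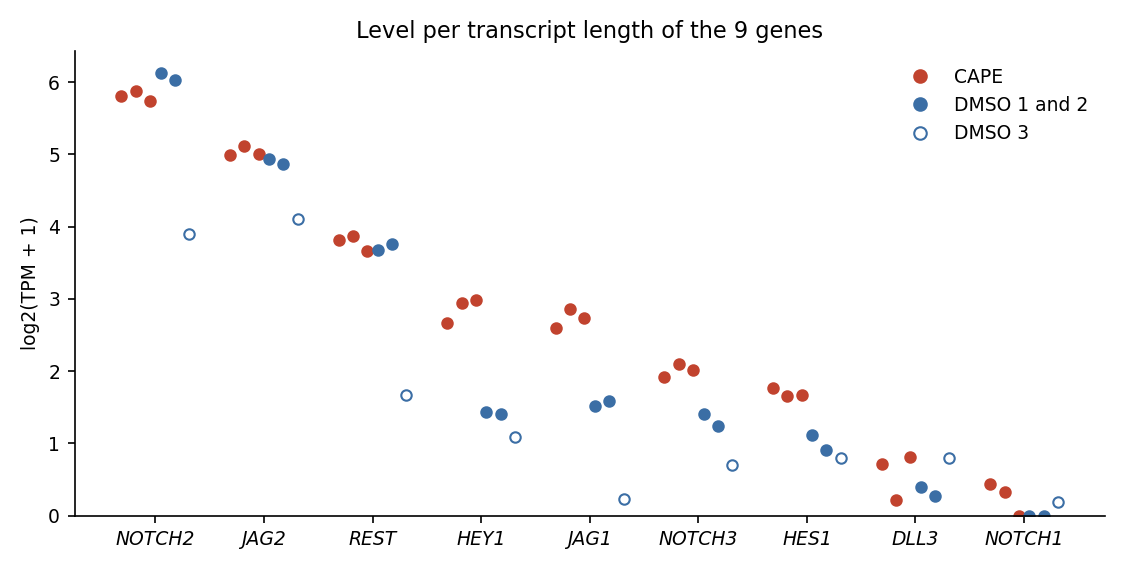
Level of each of the 9 genes as log2(TPM + 1) (vertical axis) in the 3 CAPE libraries (red), DMSO 1 and 2 (filled blue) and DMSO 3 (open blue), with genes from left to right in order of their mean; each point is 1 library. NOTCH2, JAG2 and REST have the highest means, and JAG2, HEY1, JAG1, NOTCH3 and HES1 lie higher in every CAPE library than in any DMSO library.

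Across the 9 genes, the receptor NOTCH3, the ligand JAG1 and the targets HES1 and HEY1 were higher in CPM in every CAPE library than in any DMSO library, and none was lower in every one. These are 4 of the 8 genes with enough reads to test, beside 21.4% of all 13595 genes tested that were higher without overlap and 20.6% that were lower. In edgeR's quasi-likelihood test on all 6 libraries, HEY1 alone of the 8 passed at an adjusted p under 0.05, and it rose. Of all genes tested, 1.49% passed as higher in CAPE and 0.456% as lower. Without DMSO 3, JAG1, JAG2, NOTCH3, HES1 and HEY1 rose and NOTCH2 fell, which is 5 and 1 of the 8, beside 20.4% higher and 20.8% lower among 13919 genes. The median log2 fold change of the 8 was 0.55 with all libraries and 0.93 without DMSO 3, beside -0.01 and 0.00 over all genes tested. NOTCH1 was not tested in either comparison.

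**Figure D3:**
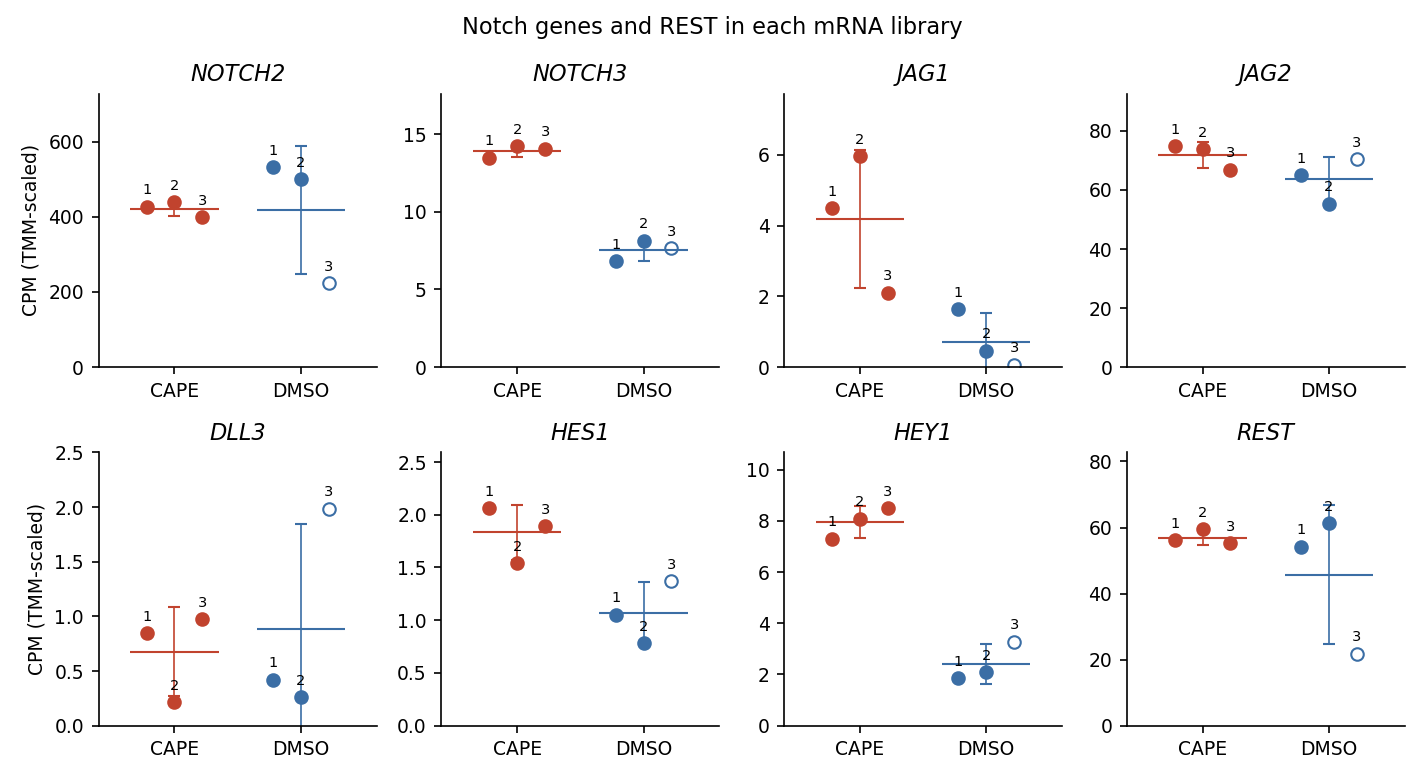
TMM-scaled CPM (vertical axes, each starting at 0) of the 8 tested genes in CAPE libraries (red) and DMSO libraries (blue, DMSO 3 open), with replicate numbers above the points; lines are means and bars are SD (n = 3), cut off at 0. CAPE points lie above all DMSO points for NOTCH3, JAG1, HES1 and HEY1, while the DMSO spread of NOTCH2 and REST comes from the low DMSO 3.

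**Figure D4:**
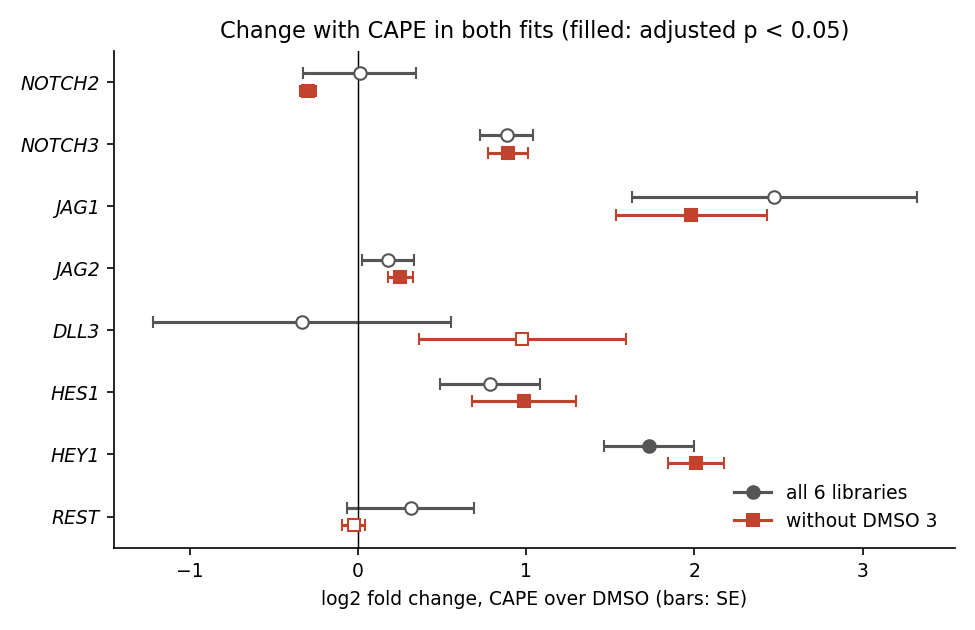
Log2 fold change of CAPE over DMSO with its standard error (horizontal axis) for the 8 tested genes in edgeR's fit with all 6 libraries and without DMSO 3; filled symbols passed at an adjusted p under 0.05. HEY1 passed in both fits, at 1.73 and 2.01, and NOTCH2 moved between 0.01 and -0.30.

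Among the receptors, NOTCH3 was higher and NOTCH2 was not separated from its controls unless DMSO 3 was left out, while NOTCH1 was barely detected. NOTCH1, the receptor most often altered in T-cell leukaemia, had 2, 1 and 0 counts in CAPE libraries and 0, 0 and 1 in DMSO libraries, all under the floor of 3 counts. A difference in NOTCH1 was not detectable at this depth.

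NOTCH2, a receptor of broad expression, had 427, 438 and 399 CPM in CAPE libraries, against 532, 500.5 and 223 CPM in DMSO libraries. The CAPE libraries lay below DMSO 1 and DMSO 2 and above DMSO 3. With all 6 libraries the log2 fold change was 0.01 (SE 0.34, edgeR adjusted p = 0.986). Without DMSO 3 NOTCH2 fell, at -0.30 (SE 0.05, edgeR adjusted p = 0.000109), and the call held in all 5 fits that also left out another library. With all 6 libraries and an offset for the length trend, the value was -0.48 (edgeR adjusted p = 0.15). NOTCH2NL, a near-identical partial copy of NOTCH2, had 18.3, 19.7 and 18.9 CPM in CAPE libraries, against 25.3, 25.6 and 56.1 CPM in DMSO libraries. NOTCH2NL also fell without DMSO 3, by 0.43 on the log2 scale (edgeR adjusted p = 0.000712), and was at -0.91 with all 6 libraries (edgeR adjusted p = 0.282). Reads of these 2 genes can be split between them by the authors' estimation, so both values are uncertain.

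NOTCH3, a receptor of vascular smooth muscle that is also expressed in many carcinomas, had 13.5, 14.2 and 14.1 CPM in CAPE libraries, against 6.80, 8.15 and 7.66 CPM in DMSO libraries. The 3 CAPE libraries were alike and all well above the DMSO libraries, with DMSO 3 inside the range of the other DMSO libraries. The means were 13.9 ± 0.384 CPM in CAPE and 7.54 ± 0.682 CPM in DMSO libraries (SD, n = 3 each). The log2 fold change was 0.88 with all 6 libraries (SE 0.16, edgeR adjusted p = 0.0546) and 0.89 without DMSO 3 (SE 0.12, edgeR adjusted p = 2.59e-05). DESeq2 gave 0.84 with all 6 libraries (adjusted p = 0.00171), but with the length offset edgeR gave 0.36 (adjusted p = 0.541). NOTCH3 made up 4.78% to 5.53% of the summed TPM of the 3 receptors in CAPE libraries and 2.33%, 2.09% and 4.25% in the DMSO libraries, so that its share was higher in every CAPE library.

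Both Jagged ligands were higher in CAPE cells once DMSO 3 was left out, with JAG1 at a low level and JAG2 at a moderate one, and DLL3 stayed near the floor. JAG1, a transmembrane Notch ligand, had 85, 112 and 41 counts in CAPE libraries, against 31, 9 and 1 in DMSO libraries. These are 4.49, 5.96 and 2.10 CPM in CAPE libraries, against 1.63, 0.470 and 0.0684 CPM in DMSO libraries. The groups did not overlap, but each was widely spread. The log2 fold change was 2.47 with all 6 libraries (SE 0.85, edgeR adjusted p = 0.244) and 1.98 without DMSO 3 (SE 0.45, edgeR adjusted p = 0.00257). Leaving out a further library gave 1.34 to 3.12 with all 5 fits past the threshold, and the largest move was to 3.12, without DMSO 1.

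On the TPM scale JAG1 was steadier, at 5.03, 6.23 and 5.64 TPM in CAPE libraries, against 1.87, 2.01 and 0.173 TPM in DMSO libraries. Its reads per TPM varied 5.44-fold among libraries, while those of the other 7 tested genes varied at most 1.44-fold. JAG1 thus gave different pictures of the spread as counts and as TPM. By its mean reads per TPM, JAG1 fell in decile 2 of transcript length, counted from the shortest. Because of the 5.44-fold variation, that decile may not reflect the length of the JAG1 transcripts. Which JAG1 transcripts the reads came from was not tested. On log2(TPM + 1) without DMSO 3, limma gave a difference of 1.17 (adjusted p = 0.00263).

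JAG2, the paralogue of JAG1, had 74.8, 73.8 and 66.8 CPM in CAPE libraries, against 64.9, 55.4 and 70.3 CPM in DMSO libraries. Only DMSO 3 overlapped the CAPE libraries. On the TPM scale the groups did not overlap, with 30.7, 33.7 and 31.0 TPM in CAPE libraries, against 29.5, 28.1 and 16.2 TPM in DMSO libraries. The log2 fold change was 0.18 with all 6 libraries (SE 0.15, edgeR adjusted p = 0.502) and 0.25 without DMSO 3 (SE 0.07, edgeR adjusted p = 0.0125). The call was lost when DMSO 2 was left out as well, at 0.14 (edgeR adjusted p = 0.197), and the length offset gave -0.02 with all 6 libraries. On log2(TPM + 1) without DMSO 3, JAG2 did not pass either, at 0.14 (limma adjusted p = 0.27). Of the summed TPM of the 3 ligands, JAG1 made up 13.8% to 15.5% in CAPE libraries and 1.01% to 6.64% in DMSO libraries, and JAG2 82.9% to 84.4% and 92.7% to 94.7%. These shares rest on TPM, and for JAG1 the reads per TPM varied 5.44-fold among libraries, so its share is uncertain. JAG2 was the main ligand transcript in every library.

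DLL3 had 16, 4 and 19 counts in CAPE libraries, against 8, 5 and 29 in DMSO libraries. The groups overlapped, with CAPE 2 and DMSO 2 low and DMSO 3 the highest. The log2 fold change was -0.33 with all 6 libraries (SE 0.89, edgeR adjusted p = 0.826) and 0.98 without DMSO 3 (SE 0.62, edgeR adjusted p = 0.221). Without CAPE 2 as well it was 1.40 (edgeR adjusted p = 0.0398), so the sign and the call both rest on single libraries. DLL3 thus gave no difference beyond the spread between replicates at this depth.

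HEY1 rose in both comparisons, and HES1 rose when DMSO 3 was left out. HEY1 encodes a repressor of the hairy family that Notch switches on directly. It had 7.29, 8.08 and 8.49 CPM in CAPE libraries, against 1.84, 2.09 and 3.28 CPM in DMSO libraries. The groups were far apart, and DMSO 3 was the DMSO library nearest to the CAPE libraries. The means were 7.95 ± 0.608 CPM in CAPE and 2.41 ± 0.771 CPM in DMSO libraries (SD, n = 3 each), a 3.32-fold rise, or in log2 1.73 (SE 0.27, edgeR adjusted p = 0.0394). Without DMSO 3 the rise was 4.02-fold, or in log2 2.01 (SE 0.17, edgeR adjusted p = 2.78e-07). With DMSO 3 kept, leaving out any one of the other 5 libraries moved the value to between 1.56 and 1.78 and ended the call (edgeR adjusted p = 0.146 to 0.242). Without DMSO 3, all 5 fits that also left out another library kept the call, at 1.92 to 2.10.

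The promoter of HES1 is shown because it holds 2 matches to the RBPJ core, both on the plus strand, and the N-box bound by HES1 itself. Notch is known to act through RBPJ, but whether RBPJ uses these 2 matches was not tested. Only HES1 among the 7 genes found in the RefSeq promoter table held the RBPJ core TGGGAA in the 250 bases before its start, with matches that begin 84 and 70 bases before it. HEY1 and DLL3 had no entry there, so their promoters were not searched. Of 35116 RefSeq promoters of this length, 20.8% held the core on either strand and 2.90% held it 2 or more times. The N-box CACNAG was found at 165, 132 and 58 bases before the HES1 start and at 211 bases before the NOTCH3 start, and 32.0% of all promoters held it. The motifs did not overlap, and both strands were read. The E-box CAGCTG and the REST element's left part CAGCACC were in none of these windows, and are held by 14.0% and 6.16% of all promoters. The right part of the REST element, GGACAG, was found only 170 bases before one of the 2 listed starts of REST, and 17.2% of all promoters held it. Capitals mark the RBPJ core and the N-box in HES1 (chr3:194135898-194136147, plus strand) and the N-box in NOTCH3 (chr19:15200996-15201245, minus strand), both from GRCh38.p14.
HES1: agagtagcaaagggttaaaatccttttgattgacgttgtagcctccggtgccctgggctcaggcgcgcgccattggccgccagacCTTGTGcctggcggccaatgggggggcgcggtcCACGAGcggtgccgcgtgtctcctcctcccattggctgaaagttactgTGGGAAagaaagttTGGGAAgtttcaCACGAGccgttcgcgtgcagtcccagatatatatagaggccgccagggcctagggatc
NOTCH3: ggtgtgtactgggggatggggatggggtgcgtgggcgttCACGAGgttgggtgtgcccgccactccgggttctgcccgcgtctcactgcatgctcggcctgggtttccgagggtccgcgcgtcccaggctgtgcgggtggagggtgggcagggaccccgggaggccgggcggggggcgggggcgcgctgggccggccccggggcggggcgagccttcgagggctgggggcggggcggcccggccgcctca

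HES1 encodes a repressor that acts downstream of Notch. It had 2.06, 1.54 and 1.89 CPM in CAPE libraries, against 1.05, 0.783 and 1.37 CPM in DMSO libraries, from 29 to 39 counts in CAPE libraries and 15 to 20 in DMSO libraries. Every CAPE library was above every DMSO library, with a narrow gap between CAPE 2 and DMSO 3. The log2 fold change was 0.78 with all 6 libraries (SE 0.30, edgeR adjusted p = 0.285) and 0.99 without DMSO 3 (SE 0.31, edgeR adjusted p = 0.0195). The call was lost when CAPE 1 or DMSO 2 was left out as well (0.90 and 0.79, edgeR adjusted p = 0.0554 and 0.156). On log2(TPM + 1) without DMSO 3, limma gave a difference of 0.68 that passed.

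By the size of their deviations across the 6 libraries, the genes with a pattern most like that of HES1 were PDK3, AFAP1L1 and SLCO4A1. PDK3 is a kinase that inhibits pyruvate dehydrogenase, and SLCO4A1 is an organic anion transporter. Their root mean square differences from HES1 in centred log2 CPM were 0.0974 for PDK3, 0.111 for AFAP1L1 and 0.111 for SLCO4A1, among 9972 genes compared. HES1 itself varied by 0.442 on this measure. These values describe likeness over 6 libraries that share the CAPE and DMSO groups and the length trend of DMSO 3.

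REST did not differ between CAPE and the DMSO libraries other than DMSO 3 by more than their spread. It had 56.1, 59.5 and 55.2 CPM in CAPE libraries, against 54.2, 61.3 and 21.8 CPM in DMSO libraries. The CAPE values lay between those of DMSO 1 and DMSO 2, and DMSO 3 was far below. The log2 fold change was 0.31 with all 6 libraries (SE 0.37, edgeR adjusted p = 0.617) and -0.03 without DMSO 3 (SE 0.07, edgeR adjusted p = 0.786). All 5 fits that left out a further library gave values from -0.12 to 0.06, and none passed. The genes most like REST over the 6 libraries were SEC62, TNKS2 and ATAD2, at 0.0267, 0.0340 and 0.0344 on the measure used for HES1, against a spread of REST itself of 0.520.

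Of 13 tested genes for cofactors of REST or for its turnover, RCOR2 rose with all 6 libraries (7.69%, beside 1.49% of all genes tested) and none fell. RCOR2, a corepressor that joins REST to the demethylase KDM1A, had 15.1, 14.8 and 14.3 CPM in CAPE libraries, against 4.74, 4.65 and 7.12 CPM in DMSO libraries. The groups did not overlap, and the log2 fold change was 1.43 (edgeR adjusted p = 0.0388), or 1.65 without DMSO 3. With DMSO 3 kept, leaving out any one of the other 5 libraries ended the RCOR2 call, at 1.31 to 1.44, as did log2(TPM + 1) (1.42, limma adjusted p = 0.0827). Without DMSO 3, RCOR2 and CTDSP1 (0.25, against -0.21 with all 6 libraries) rose and 3 genes fell, among them KDM1A (-0.34, against -0.57 with all 6 libraries) and the deacetylase gene HDAC2 (-0.26, against -0.24). Those shares of 15.4% and 23.1% are set beside the 20.4% and 20.8% of all genes given above.

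Of 22 neuronal genes that REST is known to silence, 11 had enough reads to test with all 6 libraries and none passed with edgeR. Without DMSO 3, UNC13A and CELSR3 rose, 2 of 12 tested or 16.7%, beside the 20.4% of all genes that were higher, and none fell. UNC13A, which primes synaptic vesicles, had 37, 31 and 29 counts in CAPE libraries, against 9, 23 and 9 in DMSO libraries, a log2 fold change of 1.01 without DMSO 3 (edgeR adjusted p = 0.0432) and 1.13 with all 6 libraries. CELSR3, an adhesion receptor of axon guidance, had 75.0, 71.5 and 78.3 CPM in CAPE libraries, against 64.6, 59.1 and 30.0 CPM in DMSO libraries, a log2 fold change of 0.27 without DMSO 3 (edgeR adjusted p = 0.0025) and 0.55 with all 6 libraries. The median of the list was 0.70 with all libraries and 0.47 without DMSO 3, beside -0.01 and 0.00 over all genes tested. SRRM4, the splicing factor that inactivates REST in neurons, had 3, 5 and 6 counts in CAPE libraries and 10, 5 and 6 in DMSO libraries.

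The neuroendocrine markers that Notch and REST oppose did not move together. Of 6 tested with all 6 libraries only ENO2 rose (16.7%), and none fell, beside 1.49% higher and 0.456% lower of all genes tested. ENO2, the neuronal form of the glycolytic enzyme enolase, had 176, 170 and 188 CPM in CAPE libraries, against 39.0, 37.8 and 53.7 CPM in DMSO libraries (log2 fold change 2.03, edgeR adjusted p = 0.0137). With DMSO 3 kept, each of the other 5 libraries left out in turn ended that call (1.93 to 2.08), and without DMSO 3 the value was 2.21. Because of ENO2 the summed level of the 21 markers was 156 to 162 TPM in CAPE libraries and 43.6 to 50.8 TPM in DMSO libraries. Without DMSO 3 the homeobox gene ISL1 fell, with 9, 13 and 4 counts in CAPE libraries, against 21, 20 and 8 in DMSO libraries (-1.23, edgeR adjusted p = 0.0416, against -0.99 with all 6 libraries). In that fit 16.7% of the markers tested were higher and 16.7% lower, beside 20.4% and 20.8% of all genes. Of 14 non-neuroendocrine markers tested none passed with all 6 libraries. Without DMSO 3, 6 of them (42.9%) rose and 2 (14.3%) fell, beside 20.4% and 20.8% of all genes. EPHA2 (0.39, against 0.20 with all 6 libraries) and S100A10 (0.28, against -0.82) rose, and MYC (-0.27, against -0.51) and AHNAK (-0.22, against 0.11) fell.

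Without DMSO 3, the wider Notch pathway passed the test about as often as all genes did. Of 63 further pathway genes, 51 were tested with all 6 libraries and NEURL1B alone passed, as lower. That is 1.96% lower and 0% higher, beside 0.456% lower and 1.49% higher of all genes tested. Without DMSO 3, 12 of 53 rose and 10 fell, which is 22.6% and 18.9%, near the 20.4% and 20.8% of all genes. NEURL1B encodes a ubiquitin ligase that promotes uptake of Notch ligands. It had 12.4, 10.7 and 12.5 CPM in CAPE libraries, against 27.5, 29.6 and 32.8 CPM in DMSO libraries. The groups were far apart and DMSO 3 was close to the other DMSO libraries. NEURL1B fell by 1.34 on the log2 scale with all 6 libraries (edgeR adjusted p = 0.0218) and by 1.27 without DMSO 3 (edgeR adjusted p = 9.16e-08). With DMSO 3 kept, the NEURL1B call ended when any other library was left out (-1.25 to -1.40), and also with the length offset (-1.85, edgeR adjusted p = 0.0646). On log2(TPM + 1) and log2(TPM + 0.1) NEURL1B was at -0.78 and -0.95 (limma adjusted p = 0.333 and 0.41).

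In the nuclear complex, 3 of 16 genes rose and 3 fell without DMSO 3, 18.8% each way beside 20.4% and 20.8% of all genes, and RBPJ was the one with the smallest p. RBPJ, the DNA-binding partner of all cleaved Notch receptors, had 122, 128 and 120 CPM in CAPE libraries, against 77.5, 88.0 and 41.9 CPM in DMSO libraries. Its groups did not overlap, with a log2 fold change of 0.84 with all 6 libraries (edgeR adjusted p = 0.243) and 0.58 without DMSO 3 (edgeR adjusted p = 2.42e-06). The corepressor genes TLE3 (-0.29) and TLE4 (-0.63) fell without DMSO 3, and were at -0.35 and -0.51 with all 6 libraries. Of the further HES and HEY family genes and targets, HES4 rose (1.06, against 0.51 with all 6 libraries) and HES7 fell (-0.28, against -0.86) without DMSO 3, 1 of 5 each way. That is 20% each way, near the 20.4% and 20.8% of all genes. NRARP, a Notch target that feeds back on the pathway, had 5.39, 5.11 and 5.78 CPM in CAPE libraries, against 5.96, 4.75 and 8.01 CPM in DMSO libraries, and HES5 had no read in any library. Without DMSO 3, HEY1 and HES4 thus rose and HES7 fell, while NRARP overlapped between groups.

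Among the other ligands, DLL4, which guides vessel sprouting, had 6, 10 and 14 counts in CAPE libraries, against 0, 2 and 2 in DMSO libraries. DLL4 was tested only without DMSO 3, where it rose (edgeR adjusted p = 0.012), but its DMSO libraries were all under the floor of 3 counts. DLK2, an atypical ligand, had 26, 31 and 27 counts in CAPE libraries, against 18, 9 and 8 in DMSO libraries, and rose without DMSO 3 by 1.04 on the log2 scale (edgeR adjusted p = 0.0354), against 1.15 with all 6 libraries. None of the 9 receptor processing genes passed with all 6 libraries. Without DMSO 3, 2 rose and 2 fell, 22.2% each way beside 20.4% and 20.8% of all genes. ADAM17 (0.26, against 0.61 with all 6 libraries) and PSENEN (0.31, against -0.72) rose, and PSEN2 (-0.35, against -0.73) and FURIN (-0.14, against -0.39) fell. Of 5 glycosylation genes, LFNG, the fringe enzyme that tunes which ligands a receptor answers to, fell without DMSO 3 (-0.51, edgeR adjusted p = 0.00344), and was at -0.94 with all 6 libraries (edgeR adjusted p = 0.259). That is 20% lower of the 5 without DMSO 3, near the 20.8% of all genes. Of 13 turnover genes NEURL1B alone passed with all 6 libraries, as lower (7.69%, beside 0.456% of all genes tested). Without DMSO 3, 4 rose (30.8%) and 2 fell (15.4%), beside 20.4% and 20.8% of all genes. AAK1 (0.34, against 0.61) and NUMBL (0.26, against 0.08) rose, and NEURL1B and DTX4 (-0.32, against -0.40) fell.

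**Figure D5:**
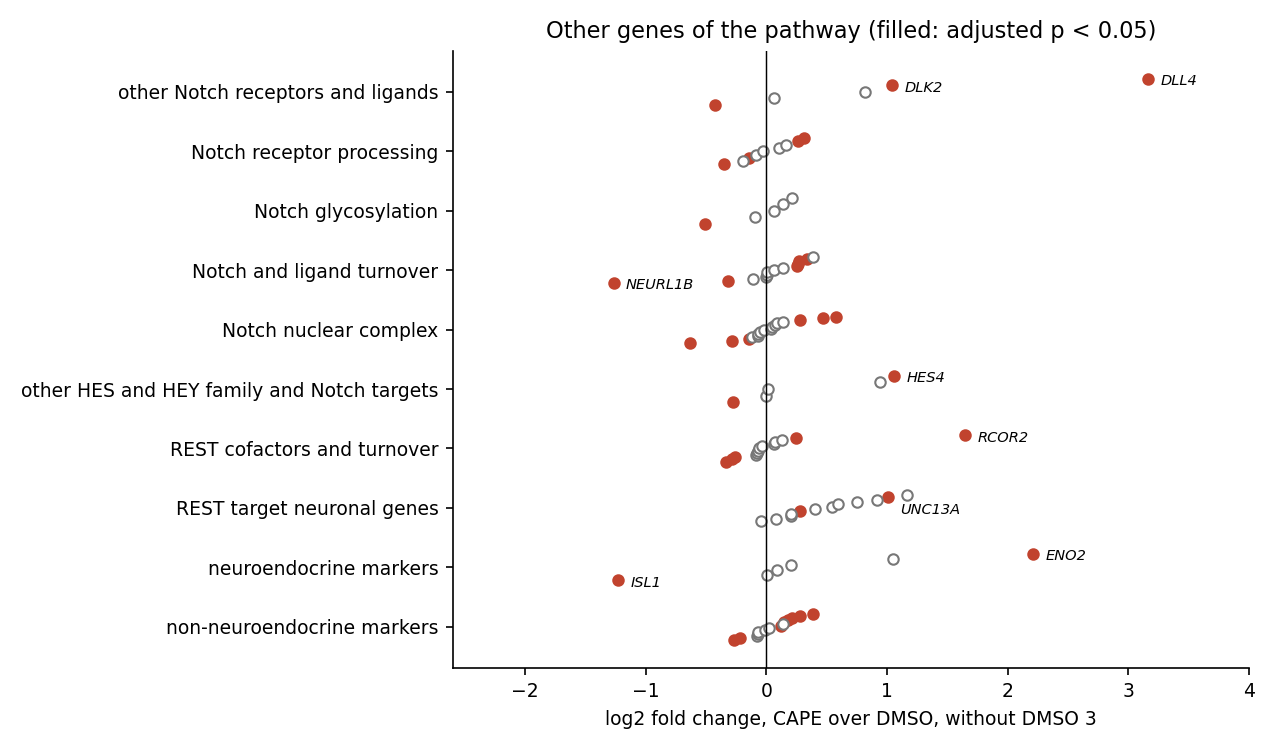
Log2 fold change of CAPE over DMSO without DMSO 3 (horizontal axis) of the tested genes of each list (rows), 1 point per gene, with the farthest called genes labelled; red points passed at an edgeR adjusted p under 0.05. Most lists are spread on both sides of 0, with ENO2 at 2.21 and RCOR2 at 1.65 on the right and NEURL1B at -1.27 on the left, while DLL4 is drawn at a fitted value that depends on the prior count because its DMSO libraries are under the floor.

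A pair of miRNA lists were read in the miRNA libraries of the same groups: miRNAs of loci that REST binds or that act on REST, and miRNAs known to act on Notch receptors or ligands. Of 527 miRNAs tested, 62 passed (11.8%). Of the REST list 2 of 6 tested rose and none fell, and of the Notch list none of 6 passed. The median log2 fold changes of the REST and Notch lists were 0.17 and 0.15, beside 0.04 over all miRNAs tested. The sequences are shown for the 2 miRNAs that passed and for miR-34a-5p, which is known to act on 3 of the genes described here, with capitals marking the seed (bases 2 to 8), all from RefSeq on GRCh38.p14. miR-132-5p lies at chr17:2049965-2049986, miR-29a-3p at chr7:130876748-130876769 and miR-34a-5p at chr1:9151735-9151756, each on the minus strand. Their 3 seeds differ, and that of miR-34a-5p is shared with miR-449a of the Notch list.
hsa-miR-132-5p: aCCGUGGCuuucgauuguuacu
hsa-miR-29a-3p: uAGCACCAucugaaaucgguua
hsa-miR-34a-5p: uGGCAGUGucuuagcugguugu

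miR-132-5p, from a locus that REST is known to silence, had 164, 159 and 181 CPM in CAPE libraries, against 105, 119 and 109 CPM in DMSO libraries. Its groups did not overlap, and the log2 fold change was 0.60 (SE 0.13, edgeR adjusted p = 0.00985), but leaving out CAPE 2, CAPE 3 or DMSO 1 ended the call. The other arm of the same hairpin, miR-132-3p, had 80.6, 91.0 and 109.6 CPM in CAPE libraries, against 94.8, 96.2 and 67.5 CPM in DMSO libraries (0.12, edgeR adjusted p = 0.727). The arms of miR-132 thus gave unlike values, and the difference between them was not tested. miR-29a-3p, reported to act on REST, had 1270, 1451 and 1636 CPM in CAPE libraries, against 991, 989 and 1167 CPM in DMSO libraries. Its log2 fold change was 0.47 (SE 0.13, edgeR adjusted p = 0.035), and leaving out CAPE 2, CAPE 3, DMSO 1 or DMSO 2 ended the call. The neuronal miR-124-3p had 1 read over all 6 libraries, and miR-9-5p had 14, 6 and 11 counts in CAPE libraries, against 17, 4 and 19 in DMSO libraries.

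miR-34a-5p, a p53 target known to act on NOTCH1, NOTCH2 and JAG1, had 340, 348 and 330 CPM in CAPE libraries, against 299, 256 and 331 CPM in DMSO libraries. The groups overlapped at DMSO 3, and the log2 fold change was 0.20 (SE 0.13, edgeR adjusted p = 0.406). The smallest p of the Notch list was that of miR-429, with 28, 14 and 16 counts in CAPE libraries, against 10, 13 and 12 in DMSO libraries (1.15, edgeR adjusted p = 0.077). miR-200c-3p, of the same seed family, had 21.1, 20.6 and 17.8 CPM in CAPE libraries, against 17.2, 16.3 and 13.4 CPM in DMSO libraries (0.35, edgeR adjusted p = 0.272).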

How the data were processed

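Counts and TPM per gene symbol were deposited by the authors, and the submitters' processing notes name bcl2fastq, kallisto 0.46.1 and GRCh38. The deposited expected counts are whole numbers. How transcripts were summed to genes is not given in the sources used here, nor are the miRNA aligner and counter. The authors deposited raw miRNA counts in 2888 entries, and of 232 repeats of a name the entry with the highest total was kept. TPM divide by transcript length, and the listed genes summed to 928267 to 947906 per library.

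Counts were filtered with filterByExpr (minimum 10), scaled with TMM and compared with edgeR 4.0.16 (R 4.3.3, quasi-likelihood test), calling features at p under 0.05 after Benjamini-Hochberg adjustment over the whole table. CPM are counts per TMM-scaled library size. Each SE is the log2 fold change divided by the square root of F. Reads per TPM, relative to the middle gene, stood for transcript length. The floor of 3 counts covers counting error only, and 3 against 3 libraries cannot go below p = 0.1 in a permutation test. limma 3.58.1 on log2(TPM + 1) or log2(TPM + 0.1) and DESeq2 1.42.0 were alternatives.

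The members, the gene and miRNA lists and the tests were chosen with earlier results of these data known. Named list genes are the passing genes with the smallest p, at most 2 per direction in each fit, or the one with the smallest p where none passed. HES1 and REST were also compared with all tested genes with a mean log2 CPM of at least 3. Genes named as markers at or near 0, and NKX2-1, POU3F2, NRARP, SRRM4, UCHL1, miR-132-3p, miR-9-5p and miR-124-3p, were chosen after their values were seen. A few genes chosen this way are not reported here. Test scripts were checked on simulated data.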

Additional observations from a re-analysis of the deposited data

How the results depend on the processing

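Leaving out DMSO 3 moved the number of calls more than any other alternative run, and depth limits JAG1, DLL3 and HES1, which had 1 to 112 counts per library. Of all genes tested, 265 passed with 6 libraries. The number was 856 with DESeq2, 416 with the length offset, 135 on log2(TPM + 1), 88 on log2(TPM + 0.1) and 3046 on log2(TPM + 1) without DMSO 3. Leaving out libraries gave 0 to 5731 (5731 without DMSO 3, at most 17 without any other single library), and the 265 genes were all among the 5731 in the same direction. TPM alternatives moved the median of all genes to 0.31 and 0.40 with 6 libraries. The same replicate number did not pair the mRNA libraries (correlations of deviations of -0.194, 0.14 and -0.00853) nor the miRNA libraries (0.107, 0.0115 and 0.117). With a replicate block 0 genes passed, and 22 with the length offset and the block.

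Of the Notch genes and REST, 1 passed with 6 libraries, and 2 did with DESeq2, 0 with the replicate block, 0 with the length offset and the block, 0 on log2(TPM + 0.1) and 5 on log2(TPM + 1) without DMSO 3. Leaving out libraries gave 0 to 7. NOTCH2 was -0.020 with RLE factors, -0.033 with DESeq2, -0.011 with no filter, -0.48 with the length offset, -0.47 with the length offset and replicate block, and -0.27 on log2(TPM + 1) without DMSO 3, but 0.11 with the replicate block, 0.45 on log2(TPM + 1) and 0.47 on log2(TPM + 0.1). On log2(TPM + 1) without DMSO 3, NOTCH3 was 0.69, JAG1 1.17, JAG2 0.14, HES1 0.68 and DLL3 0.24. With all libraries DLL3 was 0.088 on log2(TPM + 1) and 0.20 on log2(TPM + 0.1). DESeq2 gave 0.84 for NOTCH3, and the length offset -0.024 for JAG2. HEY1 missed the threshold with the replicate block (1.76, edgeR adjusted p = 0.196), with the length offset and the block (1.81, edgeR adjusted p = 0.114) and on log2(TPM + 0.1) (2.02, limma adjusted p = 0.0787). Leaving out libraries, alone or with DMSO 3, gave -0.34 to 0.21 for NOTCH2, 0.76 to 1.03 for NOTCH3, 1.34 to 3.83 for JAG1, 0.079 to 0.37 for JAG2, -0.80 to 1.40 for DLL3, 0.59 to 1.21 for HES1, 1.56 to 2.10 for HEY1 and -0.12 to 0.58 for REST. The cause was not tested.

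On log2(TPM + 1) and log2(TPM + 0.1) the sign turned for FURIN (0.088 and 0.089), TLE4 (0.24 and 0.30), CTDSP1 (0.43 and 0.43), HDAC2 (0.20 and 0.20), S100A10 (0.16 and 0.16) and DCN (0.28 and 0.30). With the length offset it turned for EPHA2 (-0.024) and AHNAK (-0.49, and -0.46 with the replicate block). Leaving out 1 library turned the sign of PSENEN (-1.06 to 0.31), NUMBL (-0.018 to 0.26), CTDSP1 (-0.41 to 0.25), S100A10 (-1.17 to 0.28) and AHNAK (-0.22 to 0.37), for NUMBL without DMSO 2 and for the others without DMSO 3. The number of miRNAs passing, 62, was 17 to 128 when a library was left out (17 without CAPE 2, 22 without CAPE 3, 30 without DMSO 1, 128 without DMSO 3) and 63 with the replicate block.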
